A study of Mus musculus with 6 samples.

Results

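The genes for the proteins of the cytosolic ribosome were examined in tumors formed by B16F10 cells, a pigmented mouse melanoma line, after implantation into the hind footpad or the flank skin. They take 86 of the 45777 gene rows of the count table. Rows were taken by symbol, namely Rpl or Rps followed by a number, with or without an ending a, x, y, l or l1, and Rplp0, Rplp1, Rplp2 and Rpsa, and the pattern itself uses no measured value. By role, 43 rows encode proteins of the large subunit, 30 of the small subunit including Rpsa, 3 the acidic stalk (Rplp0, Rplp1, Rplp2), and 10 are paralogs or copies such as Rpl22l1, Rps27l and Rps4l. The first 3 classes together are called the 76 core genes here, and all 76 are annotated as protein-coding.

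Each site was represented by 3 tumors with 1 RNA-seq library each, and the comparison between the sites addresses how the place of growth, the weight-bearing sole or the flank, goes with expression in the same tumor line. Both groups carry the same line and the same host label: according to the labels, all 6 tumors grew in Foxn1-/- mice at 8 weeks of age, a genotype that leaves the host without a normal thymus and without most T cells but with its other immune cells, fibroblasts and vessels. The study's methods describe B16F10 grafts into C57BL/6J mice as well and do not name the host of the sequenced tumors, so the host is given here as labelled. The methods speak of isolated tumor cells, the labels of removed tumors, and no separation step is named. In such grafts the methods describe footpad and flank implantation in the same mouse, but the labels do not tie tumors to mice. The tumors were therefore treated as unpaired, and the p-values set the difference between the sites against the spread of tumors within a site. If tumors shared mice, the 6 tumors are not 6 independent animals.

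Between 46529649 and 66364366 reads were counted per tumor. All 8 melanocyte markers examined were read in each tumor, the lowest at 150.5 CPM (counts scaled to library size). Fibroblast and endothelial markers differed between the sites. The summed level of 8 fibroblast markers was 2960 to 4197 CPM in footpad tumors and 87.4 to 452 CPM in flank tumors, and 5 endothelial markers summed to 107 to 171 CPM and 57.4 to 77.0 CPM. The fibroblast list includes Col1a1, Col1a2 and Col3a1, and the study states that melanoma cells also express collagen genes highly. Line and host are both mouse, so these reads cannot be assigned to host cells. Hemoglobin genes took 0.186% to 3.39% of the reads of a tumor. In bulk RNA, fewer cells of a type and less RNA per cell cannot be told apart.

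A ribosome joins a small subunit, which reads the mRNA, and a large subunit, which forms the peptide bond, and nearly every protein of either subunit is made in equal numbers because each ribosome needs a single copy. The exception is the stalk, where several copies of the acidic proteins P1 and P2 sit on P0 and recruit the GTPases of translation. Ribosomal protein mRNAs are among the most abundant of any growing cell. Most begin with a terminal oligopyrimidine (TOP) tract, a C followed by a run of C and T letters at the first transcribed base, through which LARP1 and the kinase mTORC1 set their translation and stability. Their genes also have many processed pseudogenes, which complicates the counting of short reads.

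The start sites of the genes with the lowest fold changes and of a few comparison genes are shown first, because the TOP tract is the sequence feature this family is known for. RefSeq start sites were at hand for 63 of the 86 rows. Each window holds the 15 bases before the annotated start and the 15 from it on, 5′ to 3′ on the coding strand of GRCm38.p6, and capitals mark a pyrimidine run, defined as a C followed by 4 or more C or T letters that begins within 10 bases of the start. Rps16 (chr7:28350674-28350703, plus strand), Rpl5 (chr5:107900513-107900542, plus), Rplp2 (chr7:141447636-141447665, plus), Rps21 (chr2:180257364-180257393, plus, the first of its annotated starts) and Rps15a (chr7:118116133-118116162, minus) had the lowest fold changes. Rps27 (chr3:90213634-90213663, minus) and Rpl37 (chr15:5116598-5116627, plus) lay near 0. Rpl12 (chr2:32961697-32961726, plus) and Rps12 (chr10:23787195-23787224, minus) are among the most abundant, and Rps4x (chrX:102189377-102189406, minus) is the parent of the copy Rps4l.
Rps16: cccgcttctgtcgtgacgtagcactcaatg
Rpl5: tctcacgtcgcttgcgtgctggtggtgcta
Rplp2: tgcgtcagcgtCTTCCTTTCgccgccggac
Rps21: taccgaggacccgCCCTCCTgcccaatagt
Rps15a: ctctctttctgccatCTTCCCTCgccggtg
Rps27: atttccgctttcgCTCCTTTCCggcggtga
Rpl37: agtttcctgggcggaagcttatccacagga
Rpl12: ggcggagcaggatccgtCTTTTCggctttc
Rps12: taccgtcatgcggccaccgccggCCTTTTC
Rps4x: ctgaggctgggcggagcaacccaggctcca

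Of the 63 rows, 40 (63.5%) held such a run, against 34.4% of 27025 genes with a window of the same length. With at least 6 following pyrimidines the shares were 49.2% and 14.1%, and with the run beginning within 5 bases of the start they were 47.6% and 21.2%. The letters CCGGAAGT, a core of ETS-family binding motifs, stood on either strand of the 300-base window in 19.0% of the rows and 4.31% of all genes. In Rps16, Rpl5, Rpl37 and Rps4x no run was found in these windows, which are annotated and not measured starts. The 34 core genes with a run had a median log2 fold change of -0.30 and the 22 without one -0.26, and their ranges overlapped (-0.49 to -0.06 and -0.70 to -0.04).

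In total, ribosomal protein genes took a smaller share of the reads in footpad tumors than in flank tumors. The share was 3.51%, 4.36% and 4.21% in footpad tumors 1, 2 and 3, a mean of 4.03% ± 0.456 (SD, n = 3). It was 4.69%, 4.55% and 5.38% in flank tumors 1, 2 and 3, a mean of 4.87% ± 0.441 (SD, n = 3). Every footpad tumor lay below every flank tumor, though footpad tumor 2 and flank tumor 2 lay close together. The difference of the means was -0.847 percentage points, and the footpad mean was 0.826 of the flank mean.

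The same order was seen for both subunits and the stalk. Large subunit genes took 2.25% ± 0.260 of footpad reads and 2.70% ± 0.225 of flank reads, small subunit genes 1.52% ± 0.163 and 1.85% ± 0.183, and the stalk genes 0.222% ± 0.0289 and 0.289% ± 0.0356 (SD, n = 3 each). Over the reads of protein-coding genes only, a denominator chosen after seeing the data, the shares were 4.51% ± 0.346 and 5.47% ± 0.465. In summed FPKM (a read value per gene length and library size) the sites overlapped, with 5.91%, 8.89% and 7.97% in footpad tumors and 7.25%, 8.79% and 9.77% in flank tumors.

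**Figure D1:**
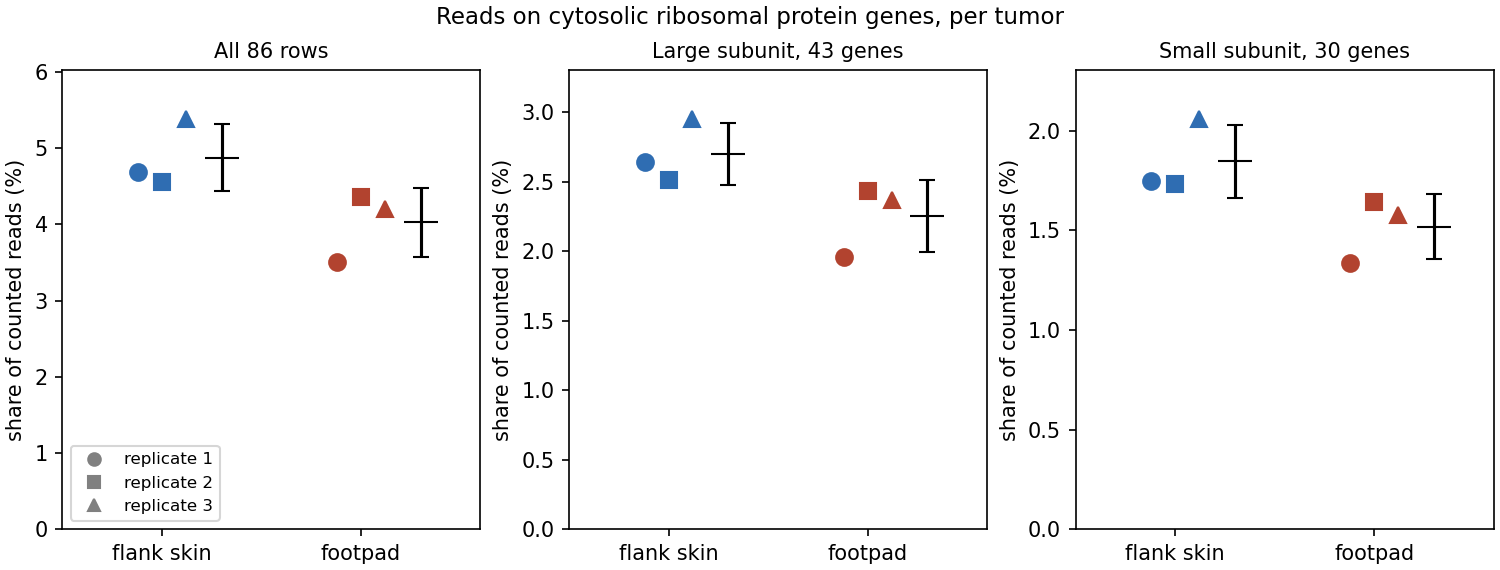
Share of counted reads (%, from 0) on all 86 rows, on the 43 large subunit genes and on the 30 small subunit genes, with 1 point per tumor and the mean ± SD (n = 3) beside the points. In each panel the 3 footpad tumors lie below the 3 flank tumors, with footpad 1 the lowest and flank skin 3 the highest.

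Markers of other cell types also differed between the tumors. The lowest share, in footpad tumor 1, was found in the tumor with the most hemoglobin reads (3.39%) and the highest summed level of 6 neutrophil markers (364 CPM, against 4.76 to 175 CPM in the other tumors). Flank tumor 1 had 2.81% hemoglobin reads and a share of 4.69%. The summed melanocyte markers were 10061, 18627 and 12920 CPM in footpad tumors 1, 2 and 3 and 25500, 14806 and 17060 CPM in flank tumors 1, 2 and 3, lowest in footpad 1 but overlapping between the sites. Gene by gene, 7 of these 8 were lower in footpad tumors and Sox10 was higher (edgeR). The median over the 8, at -0.29 on the log2 scale, was close to that of the 84 tested ribosomal protein rows (-0.29). None of the 8 passed an adjusted p of 0.05, and the sites overlapped for each. Whether the shifts of these 2 gene groups are linked was not tested. For all 8 fibroblast markers and all 5 endothelial markers, the lowest footpad value exceeded the highest flank value, against 17.5% of all genes tested. Macrophage markers summed to 86.5 to 105 CPM in footpad and 22.8 to 89.3 CPM in flank tumors. Keratinocyte markers summed to 7.94 to 665 CPM and 0.155 to 9.95 CPM, with Krt5, Krt1, Lor, Flg and Dsg1a at 0 in at least 1 tumor. Muscle markers summed to 4.67 to 618 CPM and 6.29 to 67.1 CPM, with Myh4, Tnnt3 and Myl1 at 0 in at least 1 tumor. Of the flank tumors, flank tumor 2 had the highest summed fibroblast (452 CPM), macrophage (89.3 CPM), endothelial (77.0 CPM), muscle (67.1 CPM) and neutrophil (30.1 CPM) markers. The keratinocyte markers were highest in flank tumor 3, and the melanocyte markers and hemoglobin in flank tumor 1. Without hemoglobin and the signal recognition particle RNA 7SL in the denominator the ribosomal protein share was 4.32% ± 0.362 in footpad and 5.23% ± 0.436 in flank tumors (SD, n = 3), and the part of the other cell types in it was not tested.

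By gene, the difference was small and in the same direction nearly throughout. Of the 84 rows with enough reads to be tested, 80 had a log2 fold change (footpad against flank skin, edgeR) below 0, as had 50.3% of the 17210 genes tested. The median of the 84 rows was -0.29, or 17.9% lower in footpad tumors, beside -0.00 over all genes tested. Only Rps16 passed an adjusted p of 0.05 (edgeR quasi-likelihood test, Benjamini-Hochberg over all genes tested). That is 1.19% of the 84 rows, where 4.87% of all genes tested passed in either direction, 1.44% lower and 3.43% higher in footpad tumors. No row passed with a fold of 2 or more, which 3.76% of all genes did. At an unadjusted p under 0.05 there were 15 of the 84 rows (17.9%), against 25.3% of all genes, and leaving out 1 tumor gave between 4 and 33 rows. The share of single genes past the test was thus not above that of all genes.

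In 29 of the 84 rows (34.5%) every footpad tumor lay below every flank tumor, a pattern shown by 14.9% of all genes tested. In 1 row, Rps4l, every footpad tumor lay above, against 17.5% of all genes. The 29 rows are all core genes. Among the 76 core genes, 75 fold changes were below 0, the quartiles were -0.36 and -0.21, and the lowest was -0.70 (Rps16). Since the members share 6 libraries and rise and fall together within them, their agreement in sign is not a count of independent observations.

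**Figure D2:**
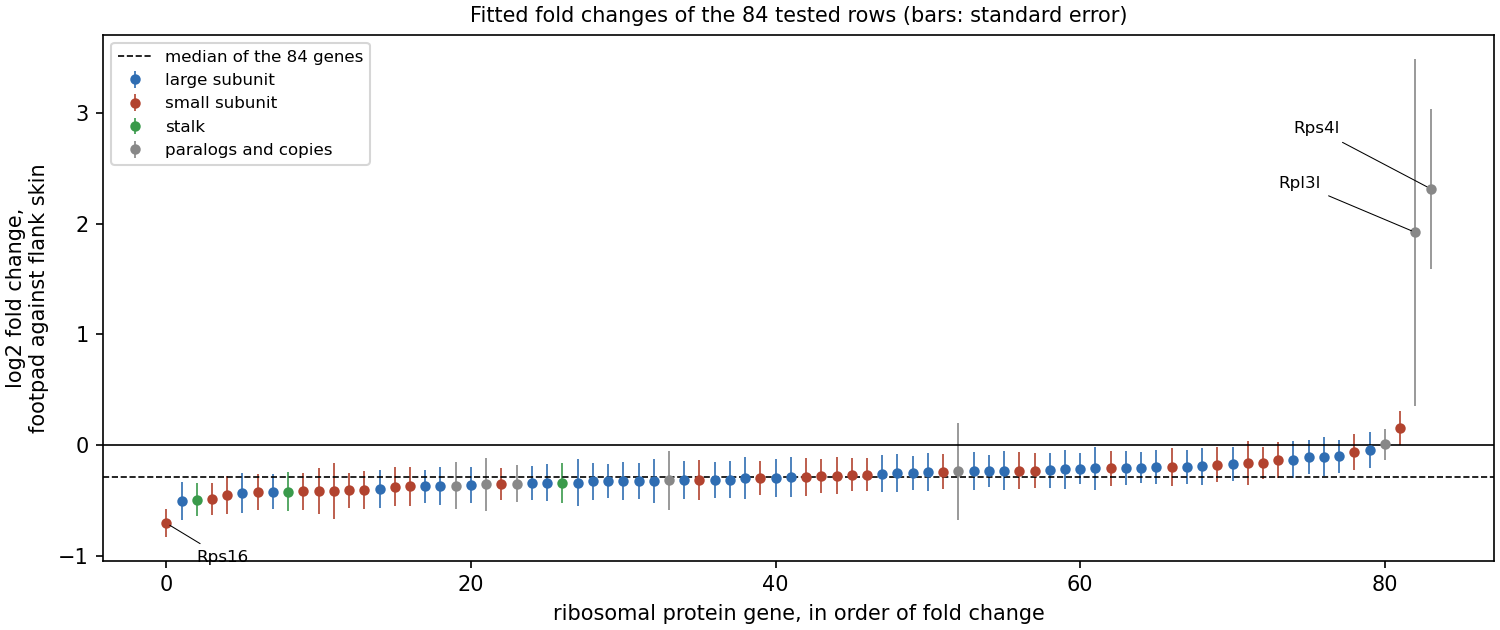
Fitted log2 fold change, footpad against flank skin, of the 84 tested rows in order, colored by part of the ribosome, with the standard error as bars and the median of -0.29 as a dashed line. Nearly all rows lie between -0.5 and 0, Rps16 lies apart below, and the copies Rps4l and Rpl3l lie far above with wide errors.

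Among the 30 small subunit genes, 29 fold changes were below 0, and the median was -0.28. In 15 of the 30 genes every footpad tumor lay below every flank tumor, against 14.9% of all genes tested. Rps16, a protein of the head of the small subunit, lies on chromosome 7 (chr7:28350689-28352698, GRCm38.p6). It was read at 108, 100.1 and 108 CPM in footpad tumors 1, 2 and 3 and at 181, 158 and 176 CPM in flank tumors 1, 2 and 3. The footpad tumors lay close together and well below the flank tumors. The log2 fold change was -0.70 (SE 0.124, edgeR adjusted p = 0.0282).

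Rps16 combined the lowest fold change with the smallest spread within sites of any core gene (SD of log2 CPM 0.0859, against a core median of 0.169). It passed in 11 of 17 alternatives, and the adjusted p ranged from 5.07e-06 to 0.131. Leaving out a tumor ended the call in 5 of 6 cases, the exception being flank tumor 2 (adjusted p = 0.0485), whereas the log2 fold change stayed between -0.76 and -0.67. Of the 75-base words in its transcripts, 35.5% also occur in transcripts of other genes, close to the core median of 29.5%.

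Rps21 and Rps15a, both of the small subunit, followed with log2 fold changes of -0.48 (SE 0.146, edgeR adjusted p = 0.0963) and -0.45 (SE 0.172, edgeR adjusted p = 0.160). Rps21 was read at 184, 222 and 217 CPM in footpad tumors and 313, 259 and 298 CPM in flank tumors. Rps15a was read at 389.6, 459 and 433 CPM in footpad tumors and at 655, 474 and 619.9 CPM in flank tumors. In both genes flank tumor 2 was the flank tumor nearest to the footpad tumors, and neither passed the test.

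Rpsa, which encodes the ribosomal protein SA also known as a laminin receptor precursor, varied most within sites (SD of log2 CPM 0.340). It was read at 1231, 1480.4 and 1377 CPM in footpad tumors and at 1291, 1704 and 2443 CPM in flank tumors. Flank tumor 1 fell among the footpad tumors, and the log2 fold change was -0.41 (SE 0.251, edgeR adjusted p = 0.347). Rps27, a zinc-finger protein, was read at 249.97, 267 and 228 CPM in footpad tumors and 301, 216 and 259 CPM in flank tumors, with full overlap and a log2 fold change of -0.06 (SE 0.163, edgeR adjusted p = 0.854).

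**Figure D3:**
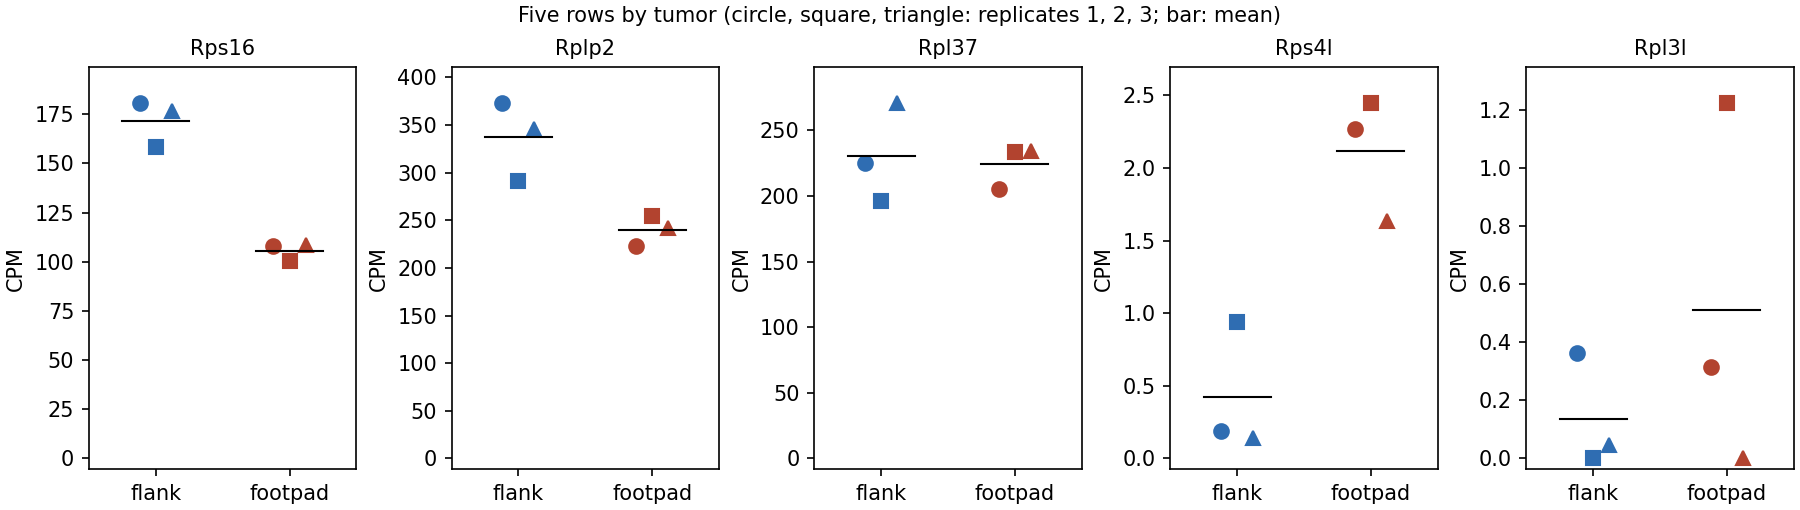
CPM of Rps16, Rplp2, Rpl37, Rps4l and Rpl3l in each tumor (circle, square and triangle for replicates 1, 2 and 3, bar for the mean). The sites are apart for Rps16, Rplp2 and Rps4l, Rpl37 overlaps, and Rpl3l is high in footpad tumor 2 only.

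All 43 large subunit genes had fold changes below 0, with a median of -0.26 and a range of -0.50 to -0.04. In 11 of the 43 every footpad tumor lay below every flank tumor, against 14.9% of all genes tested. Rpl5, which binds the 5S rRNA together with Rpl11, was lowest. It was read at 637, 749.5 and 729 CPM in footpad tumors and 1098, 826 and 1074 CPM in flank tumors, with flank tumor 2 the closest to the footpad values. The log2 fold change of -0.50 did not pass the test (SE 0.175, edgeR adjusted p = 0.129). For Rpl11 it was -0.25 (SE 0.152, edgeR adjusted p = 0.350).

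At the upper end of the large subunit, Rpl37 was read at 205, 234 and 234 CPM in footpad tumors and 225, 196 and 271 CPM in flank tumors. The sites overlapped fully, with a log2 fold change of -0.04 (SE 0.160, edgeR adjusted p = 0.9).

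All 3 stalk genes were lower in footpad tumors without overlap, against 14.9% of all genes tested, and the median log2 fold change of the 3 was -0.42. Rplp0, which anchors the stalk, was read at 1085, 1359.7 and 1221 CPM in footpad tumors and 1624, 1437.5 and 1836 CPM in flank tumors. Its log2 fold change was -0.42 (SE 0.178, edgeR adjusted p = 0.196). Rplp1 was read at 679, 779 and 759 CPM in footpad tumors and 835, 829 and 1140.4 CPM in flank tumors, with a log2 fold change of -0.34 (SE 0.183, edgeR adjusted p = 0.288). Flank tumors 1 and 2 of Rplp1 were within a small step of footpad tumor 2.

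Rplp2 had the lowest fold change of the stalk. It was read at 223, 255 and 242 CPM in footpad tumors and at 373, 291 and 346 CPM in flank tumors. The log2 fold change was -0.49 (SE 0.148, edgeR adjusted p = 0.0964). Along with Rpl5, Rps21 and Rps16 it passed in DESeq2 (adjusted p = 0.0148), the only other test in which core genes besides Rps16 did so at 0.05. DESeq2 called far more genes in general, 2729 of the 17210 tested, against 838 in edgeR.

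The order of the tumors was much the same from gene to gene. Footpad tumor 1 was the lowest of all 6 for 60 of the 76 core genes, and flank tumor 3 was the highest for 48 and flank tumor 1 for 27. All 3 footpad tumors lay below both flank tumors 1 and 3 for 68 genes, a count that leaves out flank tumor 2. Flank tumor 2 was the lowest flank tumor for 72 genes and lay below the highest footpad tumor for 45. No share of all genes tested was computed for these orders, so the counts have no background. The mean log2 CPM of the core genes was -0.25, -0.07 and -0.09 relative to the mean of the 6 tumors in footpad tumors 1, 2 and 3, and 0.21, -0.07 and 0.27 in flank tumors 1, 2 and 3. On this scale flank tumor 2 equalled footpad tumor 2, so that the distance between the sites came from the other 4 tumors.

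**Figure D4:**
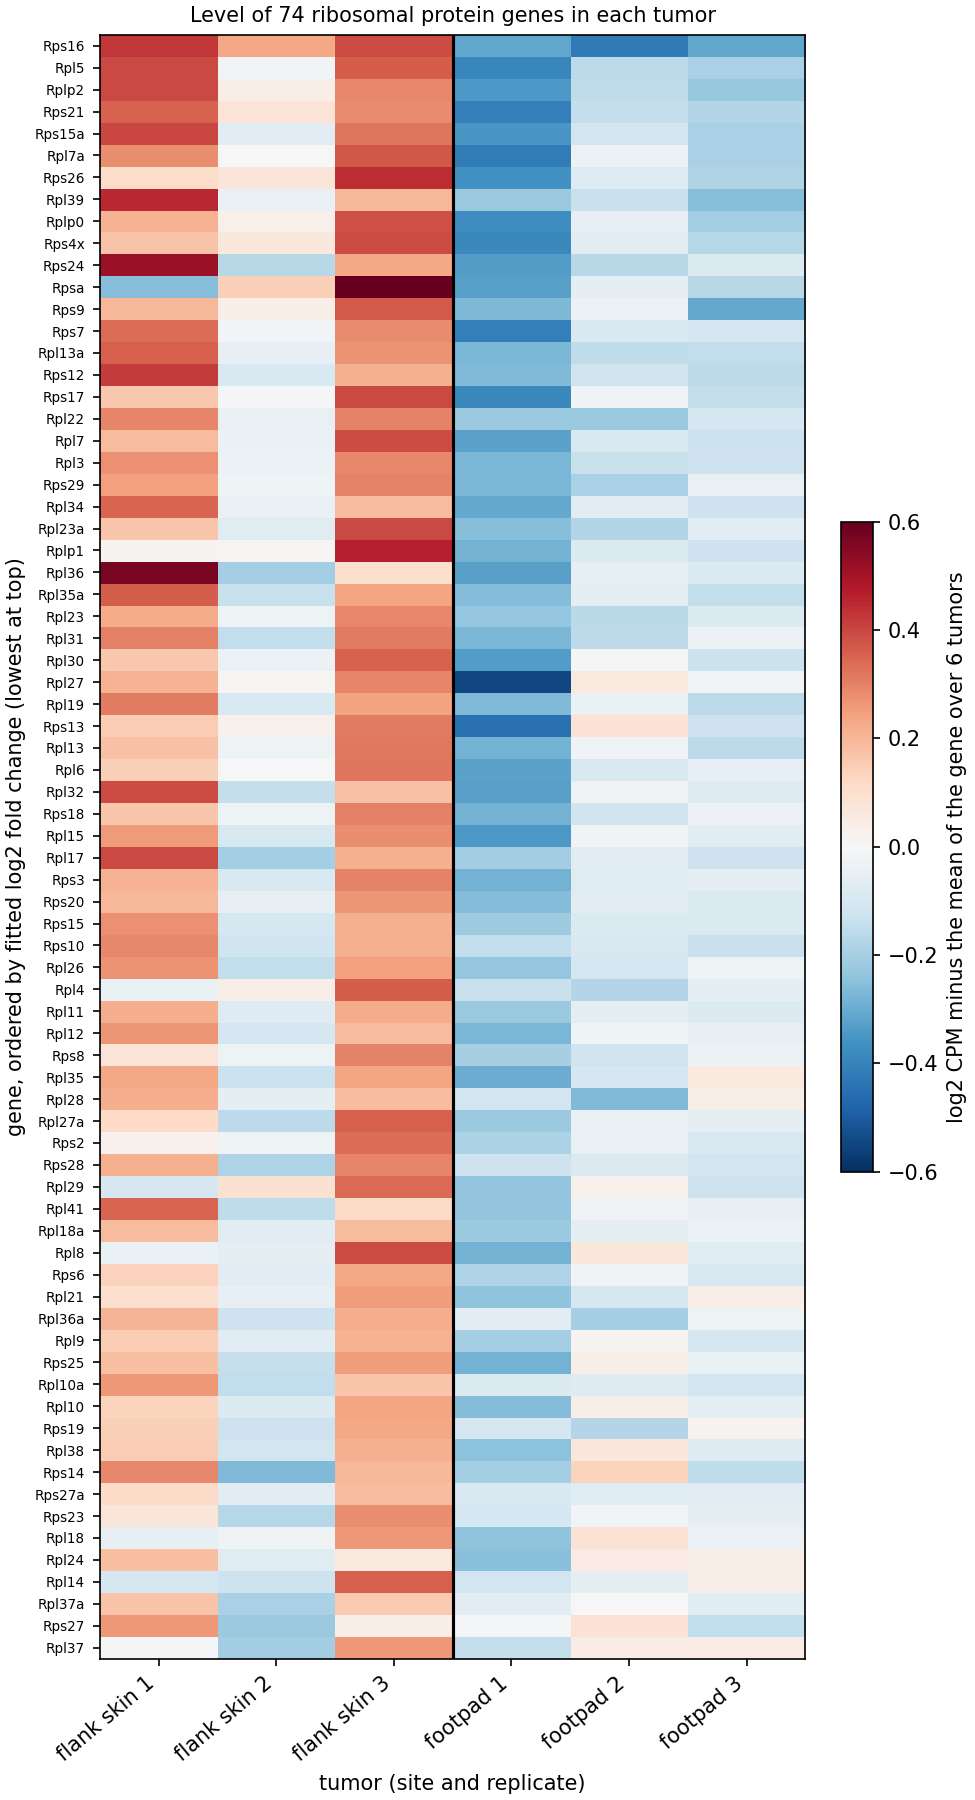
log2 CPM of 74 core genes minus the mean of each gene over 6 tumors, with genes ordered by fitted fold change from Rps16 at the top to Rpl37 at the bottom and tumors in columns. Flank tumors 1 and 3 are high and footpad tumor 1 is low for most genes, and flank tumor 2 resembles the footpad tumors.

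The core genes also varied less within sites than the typical gene tested. The median SD of log2 CPM within sites was 0.169, against 0.295 over all genes tested. Genes of like abundance were not set beside them, and the core median was 587 FPKM against 4.55 FPKM over all genes tested. The Pearson correlation of a gene with the mean of the other core genes, over 6 tumors that include the site difference and share libraries and scaling, had a median of 0.937, and 50 genes were above 0.9. Rps20 (0.998), Rps3 (0.995) and Rpl11 (0.994) were the most alike to that mean. Rps27 (0.520) and Rpsa (0.585) were among the least alike.

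Relative to the mean of the core genes in each tumor, 69 of 76 genes differed between the sites by less than 0.2 on the log2 scale. Rps16 lay at -0.42. In 10 genes every footpad tumor was below every flank tumor on this relative scale, and in 8, including Rpl37, every footpad tumor was above. Among the 10 were Rps16, Rpl5, Rplp2, Rps21 and Rps15a, the genes already picked for the lowest fold changes. The scale is centered on the core genes, and no share of all genes was computed on it, so these counts have no background.

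As levels per gene length, the core genes spanned a mean of 87.4 to 1794 FPKM, with a median of 587 FPKM beside 4.55 FPKM over all genes tested, and 74 of the 76 were among the 500 genes with the highest FPKM. Rpl32 was first with 1622 ± 284 FPKM in footpad and 1966 ± 196 FPKM in flank tumors (SD, n = 3). Rplp1 followed with 1411 ± 196 and 1782 ± 358 FPKM, then Rpl12, which lies beside the stalk base, with 1330 ± 209 and 1555 ± 90.8 FPKM. Rps12 had 1242 ± 157 and 1600 ± 149 FPKM, and Rpl41, the shortest of the ribosomal proteins, had 1230 ± 179 and 1414 ± 126 FPKM. The intervals of mean ± SD of neighbours in this order overlap within each site. Rps15a was the lowest core gene (87.4 FPKM over all tumors), followed by Rpl22 (89.6 FPKM).

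Reads that map to several places were a concern for this family. A median of 29.5% of the 75-base words in the transcripts of a core gene were shared with transcripts of other genes. The 18 core genes sharing more than 50% had fold changes of -0.43 to -0.11 with a median of -0.31. The 11 sharing less than 10% had -0.48 to -0.21 with a median of -0.34. Rps3, which shares none, had a log2 fold change of -0.28 (SE 0.171, edgeR adjusted p = 0.344). The 224 rows named as ribosomal protein pseudogenes took 0.0626% to 0.0797% of the reads of a tumor, with 0.0684% ± 0.00321 in footpad and 0.0705% ± 0.00866 in flank tumors (SD, n = 3).

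The 10 paralogs and copies behaved less uniformly, and none passed the test. Rps4l, annotated as a transcribed pseudogene of the small subunit gene Rps4x (chr6:148354656-148355596, GRCm38.p6), had 101, 168 and 80 reads in footpad tumors and 11, 55 and 9 reads in flank tumors, or 2.27, 2.45 and 1.63 CPM against 0.190, 0.940 and 0.144 CPM. The sites did not overlap, and flank tumor 2 was the highest of its site. The log2 fold change of 2.31 (SE 0.721) had an edgeR adjusted p of 0.102, which became 0.0227 without flank tumor 2 and 0.0159 in DESeq2. In these fits 553 of 18092 and 2729 of 17210 genes passed.

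Rps4x itself, on the X chromosome, was read at 721, 899 and 837 CPM in footpad tumors and 1059, 986 and 1234 CPM in flank tumors, with a log2 fold change of -0.42 (SE 0.170, edgeR adjusted p = 0.18). The log2 ratio of Rps4l to Rps4x reads was -8.60 ± 0.351 in footpad and -11.75 ± 1.54 in flank tumors (SD, n = 3), a difference of 3.15 with an exact two-sided permutation p of 0.1, the smallest that 3 against 3 allows, and an adjusted p of 0.4 over 8 pairs. The longest run of bases common to the transcripts of Rps4l and Rps4x was 38, so that no 75-base word is common to the pair.

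Rpl3l, the counterpart of Rpl3 in striated muscle (chr17:24727826-24736143, GRCm38.p6), had 14, 84 and 0 reads in footpad tumors and 21, 0 and 3 reads in flank tumors. Only footpad tumor 2 stood out, which was also the tumor with the highest summed muscle markers (618 CPM, against 4.67 to 67.1 CPM in the others). The log2 fold change of 1.92 had an SE of 1.57 (edgeR adjusted p = 0.477). The part of muscle RNA in it was not tested.

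Among the other expressed paralogs, Rps27l and Rpl22l1 had fold changes near the core median and Rpl7l1 one near 0. Rps27l, a paralog of Rps27 known as a p53 target, was read at 89.97, 136 and 124 CPM in footpad tumors and 124, 142 and 185 CPM in flank tumors, and its log2 fold change was -0.36 (SE 0.212, edgeR adjusted p = 0.325). Rpl22l1, the paralog of Rpl22, was read at 55.8, 56.5 and 48.7 CPM in footpad tumors and 95.9, 50.3 and 59.0 CPM in flank tumors, where only flank tumor 1 stood out, and its log2 fold change was -0.35 (SE 0.239, edgeR adjusted p = 0.399). Rpl7l1, which acts in ribosome assembly, was read at 97.4 to 122 CPM in footpad and 98.1 to 116 CPM in flank tumors, with a log2 fold change of 0.01 (SE 0.141, edgeR adjusted p = 0.977).

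The log2 ratio of Rpl7l1 to Rpl7 did not overlap between the sites, though footpad tumor 2 (-3.09) and flank tumor 2 (-3.11) nearly met. The ratio was higher in footpad tumors by 0.37 on the log2 scale (exact two-sided permutation p = 0.1, adjusted p = 0.4 over 8 pairs). That of Rps27l to Rps27 differed by -0.32 (exact p = 0.4), and those of Rpl22l1 to Rpl22 and Rpl36al to Rpl36a by 0.07 (exact p = 0.8) and 0.01 (exact p = 1.0). Rpl6l and Rps12l1, annotated as pseudogenes, had log2 fold changes of -0.34 and -0.32, and Rpl32l had -0.24 from 22 to 45 reads per tumor. Rpl39l had no read in the footpad tumors and flank tumor 1, and 10 and 9 reads in flank tumors 2 and 3. Rpl10l, a paralog of the testis, had 1 read in all, so that neither was tested.

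Ribosomal proteins with other symbols lay below 0 as well, and none of the 4 described here passed the test. Fau, which encodes a small subunit protein fused to a ubiquitin-like protein, had a log2 fold change of -0.28 (SE 0.179, edgeR adjusted p = 0.362). Rack1, the scaffold on the small subunit, had -0.27 (SE 0.181, edgeR adjusted p = 0.398). Rpl36al and Rps3a1 had -0.19 and -0.11 (edgeR adjusted p = 0.467 and 0.737).

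Between the start and end of 29 core genes lie 58 annotated rows of small nucleolar RNAs, a class that guides the modification of rRNA. Their strand and their place in introns were not checked. Of the 58 rows, 34 had enough reads to be tested, at a median of 22.75 reads per tumor. The median log2 fold change of the 34 was -0.34, 27 lay below 0, and none passed the edgeR test. An unadjusted p under 0.05 was found for 3 of them, and for 25.3% of all genes tested.

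Other parts of the translation machinery were set beside the core genes. The 78 mitochondrial ribosomal protein genes had a median log2 fold change of -0.19, with 66 below 0 and none past the test. Mrpl24, of the mitochondrial large subunit, was read at 36.2, 35.7 and 38.3 CPM in footpad tumors and 73.5, 47.3 and 49.4 CPM in flank tumors (log2 fold change -0.63, SE 0.187, edgeR adjusted p = 0.0933). Mrpl48 had -0.61 (SE 0.163, edgeR adjusted p = 0.0718).

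The 19 other mRNAs known to carry a TOP tract had the lowest median, -0.35, with 16 below 0 and none past the test. Npm1, the nucleolar chaperone nucleophosmin, was read at 587, 699.7 and 759.6 CPM in footpad tumors and 989, 1059 and 1293 CPM in flank tumors. The sites were well apart, yet the log2 fold change of -0.71 had an edgeR adjusted p of 0.0659 (SE 0.181). Hnrnpa1, an RNA-binding splicing factor, had -0.57 (SE 0.184, edgeR adjusted p = 0.109). Eef1a1, which brings aminoacyl-tRNA to the ribosome, had -0.47 (SE 0.223, edgeR adjusted p = 0.235), whereas Pabpc1, the poly(A)-binding protein, had 0.19 (SE 0.239, edgeR adjusted p = 0.656).

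Medians nearer to 0 were found for 11 elongation factor genes (-0.21), 37 initiation factor genes (-0.06) and 60 ribosome biogenesis genes (0.05), and none of these genes passed the test. Some elongation and initiation factor genes are also in the TOP list, and Npm1 is in the biogenesis list. The counts of these lists at an adjusted p of 0.05 are not above the background of 4.87%.

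Of 20 genes of the mTORC1 and LARP1 axis (median 0.19), 2 passed, 1 higher and 1 lower, beside 4.87% of all genes tested in either direction. Rragd, a Rag GTPase that couples amino acid supply to mTORC1, rose from 24.6, 26.1 and 42.9 CPM in flank tumors to 61.2, 81.3 and 63.0 CPM in footpad tumors (log2 fold change 1.13, SE 0.241, edgeR adjusted p = 0.0434). Pdcd4, an inhibitor of the helicase eIF4A that is degraded downstream of mTORC1, fell from 29.995, 24.3 and 24.4 CPM in flank tumors to 16.6, 14.8 and 12.1 CPM in footpad tumors (log2 fold change -0.86, SE 0.177, edgeR adjusted p = 0.0403). Neither call was kept when any 1 tumor was left out. Larp1 had a log2 fold change of 0.42 (SE 0.233, edgeR adjusted p = 0.303), and Mtor of 0.43 (SE 0.209, edgeR adjusted p = 0.241). Flank tumor 1 was the lowest for both, at 116 CPM for Larp1 and 56.9 CPM for Mtor.

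**Figure D5:**
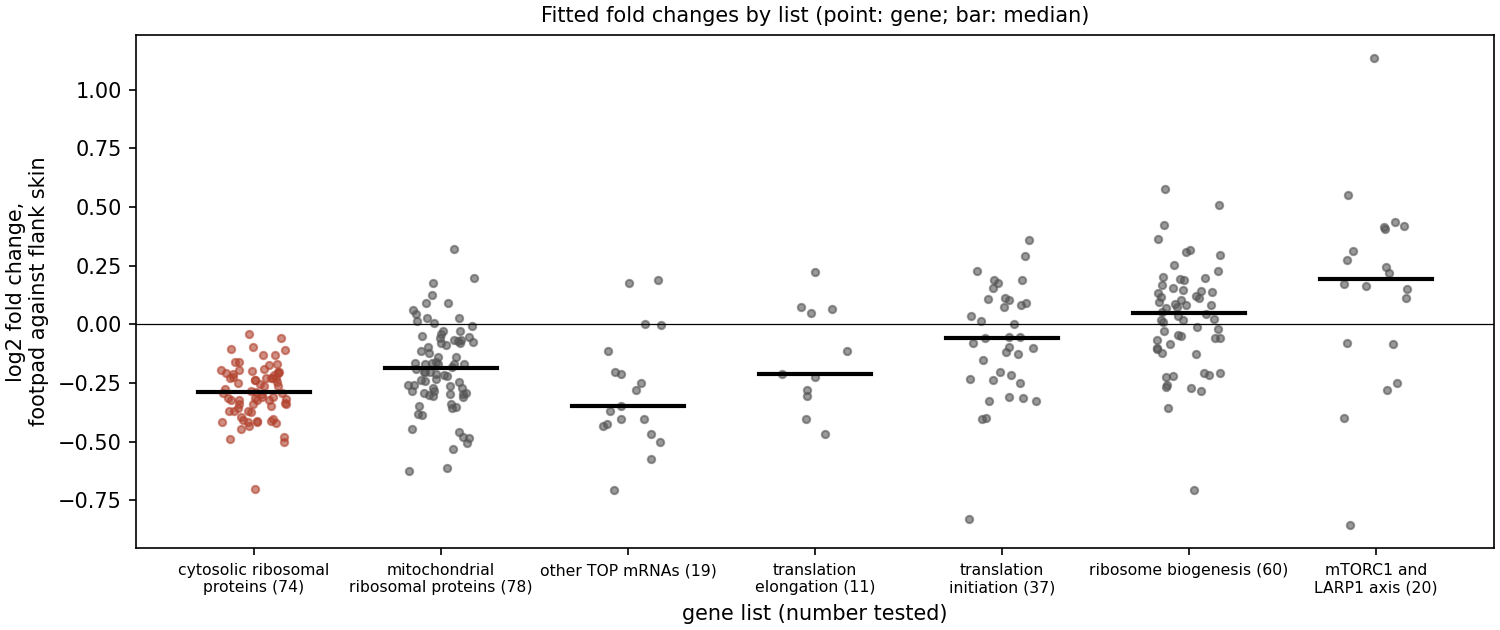
Fitted log2 fold change, footpad against flank skin, of each tested gene (points) in the core ribosomal protein genes and 6 other lists, with the median as a bar. The core genes (74 drawn) are the most tightly grouped, the other TOP mRNAs have the lowest median (-0.35), and the biogenesis and mTORC1 lists have medians above 0.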

How the data were processed

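RNA of 3 footpad and 3 flank skin tumors was analysed from the read counts per gene that the authors deposited for all 6 tumors and from the deposited FPKM values of each tumor. Per the labels and the study's methods, stranded total RNA libraries were checked with FastQC 0.11.7, trimmed with Trimmomatic and aligned with HISAT2 2.1.0 to mm10. The counting program and the rule for reads with several matches are not given in the sources used here. Counts were tested with edgeR 4.0.16 (R 4.3.3; TMM scaling, filterByExpr, quasi-likelihood F test, no covariate, Benjamini-Hochberg over 17210 genes), and a standard error is the fold change divided by the root of F. DESeq2 1.42.0 and limma 3.58.1 on log2(FPKM + 1) and log2(FPKM + 0.1) were alternatives. CPM values use TMM-scaled totals. Depth ran from 46529649 to 66364366 reads, and a gene with no read allows up to 3 counts, for counting error only. Tumors of a site differed by far more than sampling noise (chi-square per gene 62.1 to 577). On simulated data for this comparison (17210 genes), 74 of 200 changed genes were called, and 7.5% of calls were false. The same-numbered tumors of the sites did not deviate together (r = 0.05, -0.10 and -0.11). Between tumors with different numbers r ran from -0.20 to 0.26. The numbers are not known to match mice, so these values cannot show whether tumors came from the same mouse.

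The members, the lists and the tests were chosen with earlier results of these data known. Named are genes that passed, the 5 highest and 5 lowest fold changes, the 5 highest FPKM, the largest and smallest spread, the stalk genes and Rpsa, the paralogs with their parents, ribosomal proteins outside the pattern, the 3 most and least alike, and the genes with the smallest p of each list; Larp1 and Mtor were added after their values were seen. The 75-base words were compared across GENCODE M21 transcripts. Some genes that these rules select are not reported here.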

Additional observations from a re-analysis of the deposited data

How the results depend on the processing

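The median log2 fold change of the ribosomal protein rows stayed between -0.39 and -0.22 under every alternative, including each left-out tumor, and the difference in the summed share of reads on the members between -1.02 and -0.588 percentage points with a tumor left out. Rows called lower (1) became 4 in DESeq2, 3 at the looser adjusted p of 0.1, 0 where a fold of at least 2 was also asked for, 0 with a replicate block and 0 to 1 with a tumor left out; rows called higher (0) became 1 in DESeq2 and in limma with either pseudocount, and 0 to 1 with a tumor left out. Over all 17210 genes tested, DESeq2 called 2729 where edgeR called 838, so its added calls came with more calls in general. The replicate block left 0 of all genes past the threshold, and the shared numbers are not known to pair the tumors. Genes of the other lists called higher (1) became 0 with library totals alone, limma on log2(FPKM + 1), the replicate block and any left-out tumor; those called lower (1) became 5 in DESeq2, 2 with protein-coding genes only (added after seeing the data), and 0 with the block and any left-out tumor. With a tumor left out, the median of the paralogs and copies ran from -0.43 to -0.10, of elongation genes from -0.29 to 0.017 and of biogenesis genes from -0.12 to 0.14, and the log2 ratios ran from -0.25 to 0.36 (Rpl10l to Rpl10, at 1 read in all), -0.0698 to 0.28 (paralog to parent ratio: Rpl22l1 to Rpl22) and -0.10 to 0.13 (Rpl36al to Rpl36a). Genes near 0 changed sign: Rpl7l1 had -0.0014 without a filter, and with a tumor left out Rpl7l1 ran from -0.073 to 0.087, Rpl37 from -0.15 to 0.085, Rps27 from -0.18 to 0.061, Rps3a1 from -0.18 to 0.019, Eif5a from -0.083 to 0.24 and Pabpc1 from -0.020 to 0.35. The pyrimidine run share was 49.2% with the longer run and 47.6% in the narrower window. The cause of these shifts was not tested. Depth limits the copies Rpl3l, Rpl10l, Rpl39l and Rps4l, not the core genes.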
